A study of Homo sapiens with 21 samples.

Results

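Full-length EWS/FLI was compared by RNA-seq with del22, a form without the EWS domain, in the Ewing sarcoma cell line A673. The comparison took 6 of the 21 samples of the series, 3 WT-EF and 3 del22, chosen by their labels alone. In both groups the endogenous fusion was depleted by an shRNA delivered with a retrovirus on day 1, and a FLAG-tagged cDNA in the pMSCV-hygro vector was introduced on day 5. Selection, with puromycin at 2 µg/ml and later also hygromycin B at 400 µg/ml, ran until day 16, when cells were harvested. WT-EF cells received the wildtype fusion cDNA and del22 cells the negative control that keeps the FLI part with its ETS DNA-binding domain. Of the other groups, iLuc carries a control shRNA against luciferase and keeps the endogenous fusion, and iEF carries the shRNA against EWS/FLI with no fusion cDNA (n = 3 each). The mut9 form has a shortened EWS domain, DAF has tyrosines of the EWS domain changed to alanine, and DAF-mut9 combines both changes (n = 3 each). All samples come from a single cell line, the cDNAs are expressed from a retroviral vector rather than the EWSR1 promoter, and replicates 1 to 3 are separate knockdown and rescue experiments.

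EWS/FLI arises from a translocation that joins the N-terminal, intrinsically disordered part of EWSR1 to the C-terminal part of the ETS factor FLI1. The FLI part binds DNA at single ETS sites, and the EWS part gives the fusion the ability to bind microsatellites of repeated GGAA units. The EWS part also recruits chromatin regulators and lets the fusion switch on genes that FLI1 does not. In Ewing sarcoma cells the fusion activates a set of genes near GGAA microsatellites and holds down many mesenchymal genes.

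GGAA repeats within 5 kb of a start site are shown for 7 genes that were higher with WT-EF, because the fusion binds such repeats. Binding of WT-EF or del22 to them was not measured in these samples. The sequences are those of the reference genome, build GRCh37, given 5′ to 3′ on the GGAA-bearing strand with each GGAA unit in capitals, and the repeat length in A673 itself was not measured. NR0B1 has a repeat of 25 units at chrX:30328865-30328986, minus strand, 1389 bases upstream of its start. LIPI and RBM11 lie on either side of a single repeat of 11 units at chr21:15585603-15585666, minus strand, which is 2358 bases upstream of LIPI and 2817 bases upstream of RBM11. APELA has 16 units at chr4:165794477-165794563, plus strand, 3805 bases upstream. KCNE3 has 13 units at chr11:74179704-74179783, minus strand, 981 bases upstream. CYP4F22 has 12 units at chr19:15620659-15620726, minus strand, 1356 bases downstream of its start, and GPR174 has 9 units at chrX:78400374-78400442, minus strand, 206 bases downstream.
NR0B1: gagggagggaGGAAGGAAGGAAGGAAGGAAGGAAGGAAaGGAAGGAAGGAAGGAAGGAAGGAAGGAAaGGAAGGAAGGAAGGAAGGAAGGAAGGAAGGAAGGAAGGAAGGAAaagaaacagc
LIPI and RBM11: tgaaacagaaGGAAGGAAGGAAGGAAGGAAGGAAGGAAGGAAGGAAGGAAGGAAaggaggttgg
APELA: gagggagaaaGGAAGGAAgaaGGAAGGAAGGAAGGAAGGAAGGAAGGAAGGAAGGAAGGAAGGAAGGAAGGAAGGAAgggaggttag
KCNE3: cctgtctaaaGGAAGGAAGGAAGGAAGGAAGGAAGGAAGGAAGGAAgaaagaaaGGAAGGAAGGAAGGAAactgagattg
CYP4F22: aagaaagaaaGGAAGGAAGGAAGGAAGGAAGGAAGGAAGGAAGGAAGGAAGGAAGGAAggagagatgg
GPR174: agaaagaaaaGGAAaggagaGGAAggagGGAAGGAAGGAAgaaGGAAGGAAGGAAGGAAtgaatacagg

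The WT-EF libraries held 35.6 to 39.8 M counts and the del22 libraries 37.3 to 46.2 M, so that 1 CPM (reads of a gene per M reads of the library, adjusted by TMM scaling factors) stood for 36.5 to 43.6 counts. Ribosomal protein genes took 2.45% to 2.63% of the counts with WT-EF and 1.89% to 2.03% with del22, and mitochondrial genes took 6.46% to 8.36% and 6.53% to 10.2%. Pearson's r between replicates of a group was 0.9851 to 0.9886 over genes on the log2 scale. The chi-square per degree of freedom between replicates, a measure of spread in the counts, was 40.8 to 55.4 for del22 and 21.3 to 24.4 for WT-EF. The 10.2% of mitochondrial counts was in del22 replicate 1, against 6.53% and 6.63% in del22 replicates 2 and 3. Del22 replicate 3 held the highest KRT18, at 116 CPM against 46.6 and 56.9 CPM, and the lowest of several collagens.

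FLI1 was read first, since both cDNAs carry the FLI part, so its counts do not check which cDNA a library received. The FLI1 gene (chr11:128556430-128683162, plus strand) stood at 21.9, 25.2 and 26.5 CPM with WT-EF and at 41.3, 45.2 and 62.0 CPM with del22. The groups did not overlap and FLI1 was lower with WT-EF, with a log2 fold change of -1.0 ± 0.13 (SE) and an adjusted p of 7.38e-06 in edgeR's quasi-likelihood test. The counts pool the cDNA, any remaining fusion transcript and native FLI1, so the level of the cDNA alone cannot be read from them. A group difference in the amount of FLI sequence and the presence of the EWS domain cannot be told apart in these samples. For comparison, iLuc had a mean of 70.3 ± 16.2 CPM and iEF one of 20.6 ± 0.55 CPM (SD, n = 3). EWSR1, whose 5′ part is in the WT-EF cDNA only, stood at 284, 282 and 284 CPM with WT-EF and at 245, 245 and 216 CPM with del22. Its log2 fold change was 0.27 ± 0.09 (adjusted p = 0.0387), and this call was lost without del22 replicate 3 (0.18, adjusted p = 0.22), without each of the WT-EF libraries (adjusted p of 0.0572 to 0.0959) and in 3 other settings.

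Of 30549 genes tested, 7703 (25.2%) differed between WT-EF and del22 at an adjusted p below 0.05, with 3261 (10.7%) higher and 4442 (14.5%) lower with WT-EF. Of the 16417 protein-coding genes, the kind of gene that the lists below hold, 36.1% were called, 2423 higher and 3503 lower. This 36.1% is the share to set beside the share called in each list below. At 4-fold or more there were 754 higher and 1240 lower genes, and at 16-fold or more 159 and 211. The median log2 fold change was 0.95 among the higher and -1.24 among the lower genes. The direction was the same in all 3 replicate sets for 3237 of the higher and 4405 of the lower genes. The higher genes made up 42.3% of the calls (95% Wilson interval 41.2% to 43.4%, counting error over genes only). This split depends on the scaling. With library totals in place of TMM the median of all genes moved to 0.18 on the log2 scale and 62.4% of 8919 calls were higher, so directions below are relative to the TMM baseline, at which the median gene was at -0.001. In bulk RNA a change in the number of cells of a kind and a change in RNA per cell cannot be told apart.

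The 5 targets that the study assayed separately by qRT-PCR came next. NR0B1, a nuclear receptor gene (chrX:30322323-30327507, minus strand), stood at 25.6, 29.2 and 30.6 CPM with WT-EF and at 6.64, 12.1 and 5.28 CPM with del22. It was 3.66-fold higher with WT-EF, with no overlap (log2 fold change 1.87 ± 0.28, adjusted p = 2.77e-05). NKX2-2, a homeobox transcription factor gene (chr20:21491655-21494702, minus strand), was at 3.53, 3.85 and 3.46 CPM against 1.51, 1.28 and 1.16 CPM. It was 2.74-fold higher (1.46 ± 0.26, adjusted p = 0.000196). IGFBP3, a secreted binding protein for insulin-like growth factors (chr7:45951844-45961473, minus strand), was at 532, 259 and 267 CPM with WT-EF and at 6414, 6167 and 4600 CPM with del22, a 16.5-fold lower level (-4.04 ± 0.26, adjusted p = 8.72e-10). LOX, the lysyl oxidase that cross-links collagen, was at 58.3, 28.4 and 49.5 CPM against 265, 231 and 212 CPM (-2.42 ± 0.27, adjusted p = 8.38e-07). TGFBR2, the type II receptor of TGF-beta, was at 78.2, 70.8 and 62.0 CPM against 173, 214 and 200 CPM (-1.48 ± 0.18, adjusted p = 2.67e-06). All 5 were separated between the groups, the activated pair upward and the repressed 3 downward with WT-EF.

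Among the largest increases at a mean of at least 5 CPM over both groups were genes low with del22, which this choice favours. CALCB, which encodes a calcitonin gene-related neuropeptide, stood at 42.6, 36.3 and 40.9 CPM with WT-EF against 1.4, 1.12 and 0.656 CPM with del22. It was 38-fold higher (log2 fold change 5.25 ± 0.26, adjusted p = 8.09e-11). The prokineticin receptor gene PROKR1 was at 11.6, 15.3 and 13.7 CPM against 0.411, 0.298 and 0.48 CPM, 34-fold higher (adjusted p = 5.19e-09), and 1628 of its exon bases are shared with APLF on the same strand. APELA, a peptide ligand of the apelin receptor, was at 10.6, 18.6 and 19.5 CPM against 0.411, 0.963 and 0.454 CPM, 27.4-fold higher. The receptor gene GPR174, the potassium channel KCNH5 and the cytochrome P450 gene CYP4F22 rose by log2 fold changes of 4.75, 4.49 and 4.43. IGF1, the growth factor that IGFBP3 binds, was at 72.3, 81.9 and 70.6 CPM against 2.96, 4.93 and 2.65 CPM (log2 fold change 4.44 ± 0.26). Most of its exon length, 6693 of 8115 bases, is also covered by HELLPAR on the other strand. The library kit marks strand but the strand setting of the counting is not given in the sources used here. Reads of IGF1 and HELLPAR may therefore be mixed, or left uncounted where they fit both genes. The same holds for 933 of 2123 exon bases of NKX2-2, 609 of 3599 of KCNE3 and 672 of 4738 of TAP1.

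The largest decreases were of the same order. DHRS3, a retinaldehyde reductase, stood at 0.336, 0.895 and 0.958 CPM with WT-EF against 25.8, 37.4 and 26.6 CPM with del22, 41.6-fold lower (log2 fold change -5.38 ± 0.60, adjusted p = 8.36e-07). IGFBP1, another binding protein for insulin-like growth factors, was at 0.553, 0.169 and 0.344 CPM against 11.7, 11.8 and 12.3 CPM, 33.9-fold lower. ESM1, a proteoglycan secreted by endothelial cells, was at 16.5, 8.27 and 20 CPM against 244, 491 and 618 CPM, 30.0-fold lower (adjusted p = 1.17e-08). These genes were chosen by the size of their change, so the distance between the groups follows from the choice. NNMT, which methylates nicotinamide, was at 1.37, 1.45 and 1.08 CPM against 28.5, 53.1 and 36.5 CPM. TFPI2, an inhibitor of serine proteases, was at 19.8, 11.2 and 21 CPM against 459, 597 and 354 CPM. ITGB3, the integrin beta 3 chain, was at 0.889, 0.363 and 0.712 CPM against 14.1, 23.7 and 16.2 CPM, and 2266 of its 6829 exon bases are shared with another gene on the same strand. APOL3 and the cytoskeletal adaptor gene SORBS2 fell by 4.83 and 4.74 on the log2 scale.

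**Figure D1:**
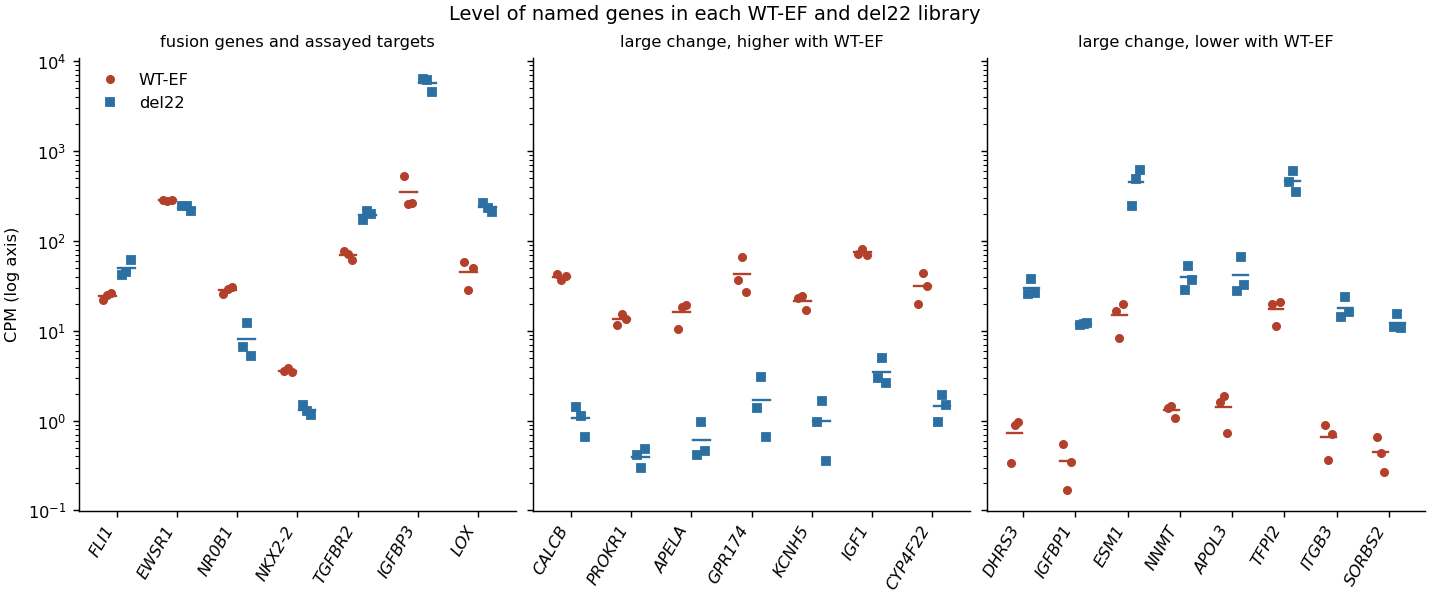
The level of each gene in CPM (log axis) is plotted for the 3 WT-EF libraries (circles) and the 3 del22 libraries (squares), with the group mean as a line. The left panel holds FLI1, EWSR1 and the 5 assayed targets. The others hold genes chosen for large changes in each direction, so the distance between their groups follows from the choice. DHRS3 is at 0.336 to 0.958 CPM against 25.8 to 37.4 CPM.

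Among genes known to be activated by EWS/FLI in Ewing sarcoma, 26 of 31 were higher with WT-EF, 2 were lower and 3 did not pass the test. These 90.3% called compare with 36.1% of protein-coding genes, and of all genes 10.7% were higher and 14.5% lower. The median log2 fold change of the list was 1.46, and the lower count was 1 without WT-EF replicate 2, WT-EF replicate 3 or del22 replicate 3. DKK2, a secreted Wnt modulator, was at 149, 233 and 163 CPM with WT-EF against 8.17, 10.8 and 8.08 CPM with del22 (log2 fold change 4.32 ± 0.33, adjusted p = 5.71e-09). LIPI, a lipase with restricted expression in normal tissue, was at 93.9, 125 and 107 CPM against 8.31, 10.6 and 8.28 CPM (3.58 ± 0.20, adjusted p = 1.64e-10). RBM11, an RNA-binding protein on the other side of the repeat next to LIPI, was at 120, 142 and 156 CPM against 25.5, 32.2 and 23.3 CPM (2.37 ± 0.16, adjusted p = 1.8e-09). The 2 neighbours of the printed repeat therefore both rose, LIPI by 12-fold and RBM11 by 5.18-fold. The uridine phosphorylase gene UPP1 moved against the name of its list, from 14.6, 16.0 and 13.1 CPM with del22 to 7.74, 7.6 and 7.32 CPM with WT-EF (-0.95 ± 0.19, adjusted p = 0.000846).

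Of 20 genes known to be repressed by EWS/FLI, 17 (85%) were lower with WT-EF and the other 3 did not pass the test. The median log2 fold change was -1.53. THBS1, the matrix glycoprotein thrombospondin-1, had the smallest p of the list. It stood at 5.55, 4.86 and 6.14 CPM with WT-EF and at 139, 131 and 133 CPM with del22, 24.4-fold lower (-4.61 ± 0.16, adjusted p = 1.3e-13).

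Genes of the ETS family, whose DNA-binding domain is the part shared by the 2 cDNAs, were mixed. Of 25 tested, 3 were higher and 7 lower with WT-EF, 40% called, which is near the 36.1% of protein-coding genes. ETS1 was at 64.8, 44.7 and 54.1 CPM with WT-EF against 157, 238 and 200 CPM with del22 (-1.87 ± 0.30, adjusted p = 6.24e-05). ETS2 went the other way, at 55.1, 67.3 and 64.7 CPM against 19.3, 25.7 and 26.2 CPM (1.41 ± 0.26, adjusted p = 0.000336). The epithelial ETS factor gene EHF was at 0.36, 0.363 and 0.196 CPM against 2.25, 3.71 and 1.99 CPM. Of 27 genes that ERG, FLI1 and related factors activate in endothelial cells, 14 were lower with WT-EF, 4 higher and 9 not called. The share called was 66.7%, against 36.1% of protein-coding genes. The endothelial receptor gene TIE1 was at 0.432, 0.218 and 0.491 CPM with WT-EF against 6.58, 5.82 and 4.47 CPM with del22 (-3.92 ± 0.43, adjusted p = 6.66e-07), and the VEGF receptor gene FLT1 at 25, 16.4 and 19.8 CPM against 46.8, 47.7 and 50.7 CPM. APLNR, the apelin receptor, was the reverse, at 2.76, 3.75 and 2.92 CPM against 0.411, 0.596 and 0.934 CPM (2.27 ± 0.32, adjusted p = 1.59e-05). Summed over 5 markers of endothelial cells the level was 7.14 to 14.9 CPM with WT-EF and 25.8 to 41 CPM with del22. In each group 4 of the 5 markers had a mean under 1 CPM, so the sum rests mostly on a single gene. The part of such cells in the result was not tested.

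Homeobox genes of the HOXD cluster, which lie side by side on chromosome 2, were mostly higher with WT-EF. Of 9, 7 were higher, 1 was lower and 1 was not called (88.9% called). HOXD13 (chr2:176957449-176960672, plus strand) was at 40.2, 43.5 and 35.6 CPM against 15.1, 14.4 and 14 CPM (log2 fold change 1.45 ± 0.12, adjusted p = 1.46e-08). HOXD9 was at 19.7, 18.6 and 17.4 CPM against 6.77, 7.13 and 6.26 CPM, 2.77-fold higher. The lower member, HOXD1, was low in both groups, at 0.0982 to 0.216 CPM against 0.247 to 0.581 CPM, and its call was lost without WT-EF replicate 2, WT-EF replicate 3 or del22 replicate 3.

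Neural and neuroendocrine genes gave 11 higher and 4 lower of 27 (55.6% called, against 36.1% of protein-coding genes). The lower count was 2 without WT-EF replicate 2 or del22 replicate 3. CHGA, a protein of secretory granules, was at 2.23, 3.6 and 5.82 CPM with WT-EF against 0.302, 0.344 and 0.555 CPM with del22 (3.23 ± 0.38, adjusted p = 1.48e-06). SYNPR, a synaptic vesicle protein, was at 2.33, 4.5 and 3.32 CPM against 0.439, 0.871 and 0.303 CPM. The neuropeptide gene GAL went down, to 1.92, 1.09 and 0.982 CPM from 7.79, 10.8 and 7.5 CPM (-2.71 ± 0.38). Axon guidance genes were split, with 12 higher and 18 lower of 54 (55.6% called). The guidance receptor genes EPHA5 and DCC and the ligand gene EFNB1 rose by log2 fold changes of 3.21, 1.77 and 2.30. The netrin gene NTN4 fell by 3.37, with 14.7, 12.5 and 14.7 CPM against 131, 128 and 179 CPM. Potassium channels were also split, with 7 of 32 higher and 10 lower (53.1% called). KCNE3, an accessory subunit beside the repeat printed above, was at 88.3, 96.6 and 101 CPM against 17.2, 16.7 and 11.2 CPM (2.67 ± 0.26), and KCNK3, a background potassium channel, was at 0.432, 0.411 and 0.688 CPM against 9.38, 8.32 and 8.03 CPM (-4.06 ± 0.30).

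Genes of the extracellular matrix and of adhesion were predominantly lower with WT-EF. Of 22 collagen genes, 15 were lower and 2 higher (77.3% called, median log2 fold change -1.07). COL6A1, a chain of type VI collagen, was at 68.9, 56.5 and 45.3 CPM with WT-EF against 515, 650 and 267 CPM with del22 (-3.04 ± 0.28, adjusted p = 8.51e-08), and its partner chain COL6A2 at 107, 78.5 and 59.4 CPM against 715, 836 and 366 CPM. Del22 replicate 3 was the lowest of the del22 libraries for both chains and lay above every WT-EF library. COL21A1 was higher with WT-EF, at 59.2, 95.4 and 72.3 CPM against 15.3, 19.9 and 18.1 CPM (2.07 ± 0.29). COL16A1 was at 86.8, 101 and 81.3 CPM against 60.2, 63.5 and 19.3 CPM, and its call was lost without del22 replicate 3 (0.68, adjusted p = 0.062). Of 15 lysyl oxidases and collagen processing enzymes, 13 were lower, among them PLOD2, a lysyl hydroxylase at 91.0, 95.2 and 79.5 CPM against 367, 518 and 236 CPM (-2.03 ± 0.17, adjusted p = 1.89e-08). Of 24 matrix proteases and inhibitors, 19 were lower (79.2%), or 14 without WT-EF replicate 2 and 14 with library totals as the scaling. Among the 19 were the protease genes ADAMTS1 (-2.32 ± 0.22) and MMP14 (-1.05 ± 0.12) and the inhibitor gene TIMP3 (-2.96 ± 0.33). The others of these 2 lists did not pass the test.

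Integrins and focal adhesion genes had 20 of 23 lower and 1 higher (91.3% called, median log2 fold change -1.38). ITGA3 was at 47.1, 24.9 and 37.6 CPM against 277, 339 and 341 CPM (-3.14 ± 0.19, adjusted p = 4.02e-10), and ITGA10, a collagen receptor, at 6.53, 2.83 and 4.37 CPM against 79.3, 49.5 and 56.4 CPM. ITGA7, a laminin receptor of muscle, was the exception, at 12.5, 13.9 and 18.3 CPM against 5.54, 5.66 and 8.61 CPM (1.17 ± 0.22, adjusted p = 0.000449). Contractile and actin genes that SRF activates had 14 of 20 lower (70%), or 11 without WT-EF replicate 2 and 12 with library totals as the scaling. An example is the SRF cofactor gene FHL2 at 16.4, 10.5 and 17.3 CPM against 57.4, 52.8 and 63.6 CPM (-2.0 ± 0.17). YAP and TEAD target genes had 19 of 27 lower (70.4%), such as the membrane repair gene MYOF at 167, 85.3 and 137 CPM against 639, 539 and 703 CPM (-2.30 ± 0.18). Some genes stand on more than 1 list, and THBS1, IGFBP3 and TGFBR2 count under repressed targets and under YAP and TEAD targets.

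Mesenchymal transcription factor genes had 10 of 21 lower and 2 higher (57.1% called), or 1 higher without WT-EF replicate 2. ZEB1, a repressor of epithelial genes, was at 11.2, 9.94 and 9.58 CPM with WT-EF against 69.7, 106 and 93.3 CPM with del22 (-3.10 ± 0.22, adjusted p = 2.5e-09). PRRX1, a homeobox gene of limb and craniofacial mesenchyme, was at 59.8, 51.2 and 35.4 CPM against 262, 334 and 231 CPM. TWIST1 was higher, at 22.7, 23.9 and 19.1 CPM against 13.9, 12.1 and 11.2 CPM (0.82 ± 0.17, adjusted p = 0.00102). Of 6 markers of mesenchymal stromal cells, 4 were lower and 1 higher (0 without WT-EF replicate 2 or del22 replicate 3), and their sum was 1658 to 2507 CPM with WT-EF and 5117 to 5638 CPM with del22. NT5E, the surface nucleotidase CD73, was at 692, 455 and 588 CPM against 1890, 2309 and 2579 CPM. The marker sum was 4925 to 5903 CPM in iEF and 797 to 958 CPM in iLuc, cells of the same line, and whether cells of another kind took part in the result was not tested.

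Most immune genes on the lists were lower, and the chemokine and interferon lists had the lowest medians of the gene lists. Of 24 chemokine and cytokine genes, 18 (75%) were lower with WT-EF and the other 6 did not pass the test (median log2 fold change -2.67). CXCL8, which attracts neutrophils, was at 211, 126 and 178 CPM against 1979, 2223 and 1594 CPM (-3.49 ± 0.40, adjusted p = 1.4e-06). CCL2, which attracts monocytes, was at 14.8, 18.6 and 8.28 CPM against 231, 558 and 201 CPM, and the cytokine LIF at 8.02, 6.87 and 5.38 CPM against 148, 212 and 67.4 CPM. Of 28 interferon-stimulated genes, 25 (89.3%) were lower and the other 3 did not pass the test (median -1.98). MX2, an antiviral GTPase, was at 0.985, 2.03 and 1.23 CPM against 33.7, 49.0 and 19.1 CPM (-4.58 ± 0.56, adjusted p = 2.62e-06), and IFIT3, which takes part in the antiviral response, at 57.4, 79.9 and 53.2 CPM against 259, 431 and 358 CPM. All 15 MHC class I presentation genes were lower (median -1.29). TAP1, a subunit of the peptide transporter, was at 28.6, 26.9 and 19.0 CPM against 95.2, 140 and 87.7 CPM (-2.11 ± 0.24, adjusted p = 8.3e-07). NLRC5, the transactivator of the class I genes, was at 12.9, 12.5 and 9.28 CPM against 31.5, 29.0 and 24.2 CPM (-1.29 ± 0.17). HLA-C was lower too (-1.81 ± 0.21), although reads may be shared among the HLA genes. Markers of blood cells summed to 1.97 to 2.33 CPM with WT-EF and 2.02 to 3.17 CPM with del22, and HBB was at 0 in all 6 libraries.

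**Figure D2:**
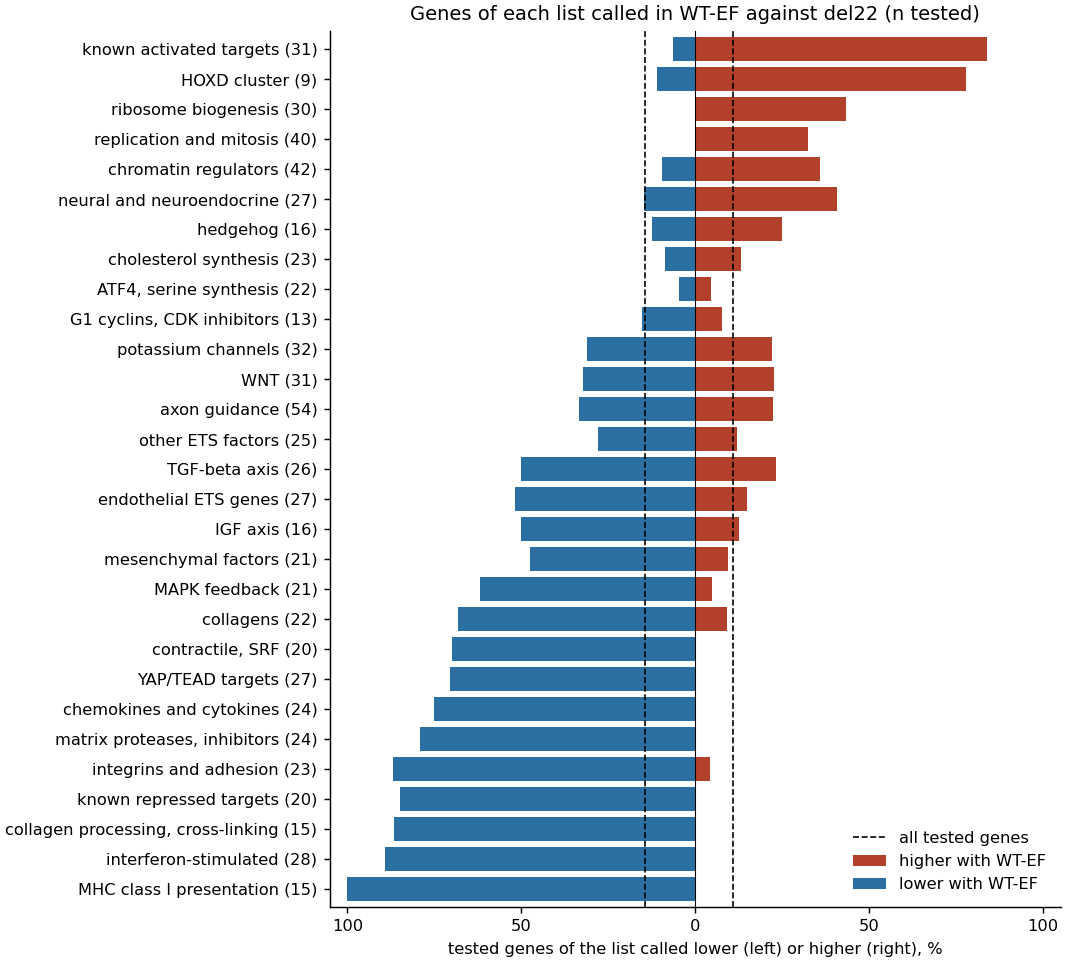
Each bar is a gene list, with the share of its tested genes called higher with WT-EF to the right and lower to the left, in percent, and the number tested in brackets. The dashed lines mark all tested genes, at 10.7% higher and 14.5% lower, and the bars run from all 15 MHC class I genes lower to 26 of 31 activated targets higher. Among protein-coding genes, the kind on the lists, 36.1% were called in either direction, above the 25.2% of all tested genes.

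Growth factor pathways moved in parts. In the IGF axis 2 of 16 genes were higher and 8 lower (62.5% called). Beside the ligand IGF1, the adaptor gene IRS2 was higher, at 163, 158 and 163 CPM against 30.4, 30.3 and 47.9 CPM (2.17 ± 0.22, adjusted p = 2.02e-07). The binding protein genes IGFBP1, IGFBP3 and IGFBP6 were lower, IGFBP6 at 6.22, 4.47 and 6.26 CPM against 29.5, 37.4 and 43.9 CPM. Of 26 ligands, receptors and SMAD proteins of the TGF-beta axis, 13 were lower and 6 higher (73.1% called). The receptor gene TGFBR1 was at 35.5, 29.1 and 29.0 CPM against 107, 102 and 83.5 CPM (-1.64 ± 0.13, adjusted p = 7.85e-09), and the latent binding protein gene LTBP1 at 4.68, 4.38 and 5.23 CPM against 42.0, 43.6 and 27 CPM. Receptor and SMAD genes went both ways. Among the 6 higher genes were the BMP receptor gene BMPR1A (0.53 ± 0.11) and SMAD9 (1.66 ± 0.19), at 77.7, 70.5 and 74.7 CPM against 29.0, 21.5 and 20.8 CPM, while the receptor genes BMPR2 and ACVR1, named here outside the fixed rule, were lower.

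Feedback inhibitors and early targets of FGF and MAPK signalling had 13 of 21 lower and 1 higher (66.7% called). With library totals as the scaling, 9 were lower and 2 higher. The MAPK phosphatase gene DUSP4 was at 21.5, 19.7 and 28.9 CPM against 110, 131 and 136 CPM (-2.43 ± 0.17, adjusted p = 2.36e-09), and the inhibitor gene SPRY2 at 38.3, 32.1 and 39.9 CPM against 125, 128 and 195 CPM. EGR2, an immediate early transcription factor, was at 49.2, 68.7 and 55.4 CPM against 15.0, 28.9 and 17.9 CPM (1.52 ± 0.29, adjusted p = 0.000502). Of 31 Wnt genes, 7 were higher and 10 lower (54.8% called). Secreted antagonists went both ways, with FRZB at 20.9, 19.5 and 20.7 CPM against 2.93, 2.52 and 2.4 CPM (2.98 ± 0.34) and SFRP1 at 0.769, 0.992 and 0.86 CPM against 10.3, 18.6 and 33.7 CPM (-4.47 ± 0.30). In the Hedgehog pathway 4 of 16 were higher and 2 lower, 37.5% called, which is near the 36.1% of protein-coding genes. The transcription factor GLI1 was at 2.02, 2.61 and 2.53 CPM against 0.219, 0.573 and 0.328 CPM (2.68 ± 0.34), and the receptor gene PTCH1 at 13.8, 17.2 and 15.9 CPM against 7.32, 6.05 and 7.09 CPM (1.19 ± 0.16, adjusted p = 6.71e-06).

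Of 40 DNA replication and mitosis genes, 13 were higher with WT-EF and the other 27 did not pass the test (median log2 fold change 0.38). The share called was 32.5%, against 36.1% of protein-coding genes. The replicative helicase gene MCM6 was at 101, 112 and 93.2 CPM against 66.1, 60.9 and 48.7 CPM (0.81 ± 0.15, adjusted p = 0.000447). This count was 5 without WT-EF replicate 2 or without del22 replicate 3, and 26 with library totals as the scaling. Of 30 ribosome biogenesis genes, 13 were higher and the others were not called (43.3% called, median 0.36). Among the higher genes was the assembly factor gene WDR12, at 146, 144 and 140 CPM against 90.2, 105 and 92.8 CPM (0.58 ± 0.10, adjusted p = 0.000151). That count fell to 7 without WT-EF replicate 1 or del22 replicate 1, 8 without WT-EF replicate 2 and 6 without del22 replicate 3, and was 26 with library totals. Among 13 G1 cyclins, kinases and inhibitors only 3 were called (23.1%). CCND1, the cyclin D1 gene, was higher at 2223, 2117 and 1808 CPM against 1630, 1617 and 1327 CPM (0.43 ± 0.11, adjusted p = 0.00712). CDKN1A, the p21 inhibitor, was lower at 42.7, 52.4 and 53.2 CPM against 107, 159 and 152 CPM (-1.49 ± 0.21, adjusted p = 1.77e-05), and so was the kinase gene CDK6 (-1.34 ± 0.22).

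Subunits of the BAF, NuRD and polycomb complexes were called in 19 of 42 cases (45.2%), 15 higher and 4 lower. With library totals as the scaling 25 were higher. The BAF subunit gene SMARCC1 was at 363, 390 and 331 CPM against 147, 170 and 153 CPM (1.21 ± 0.12, adjusted p = 2.14e-07). BCL11B, a transcription factor found in BAF complexes, was at 94.8, 113 and 101 CPM against 23.5, 33.8 and 31.8 CPM (1.80 ± 0.21), and the NuRD helicase gene CHD3 at 296, 307 and 251 CPM against 134, 167 and 147 CPM (0.93 ± 0.12). Of 23 cholesterol genes 3 were higher and 2 lower, 21.7% called. Of 22 serine synthesis and ATF4 target genes 1 was higher and 1 lower, 9.09% called. For comparison, 36.1% of protein-coding genes and 25.2% of all genes were called. The lower cholesterol count was 1 without WT-EF replicate 1 or 2 and 0 without WT-EF replicate 3 or del22 replicate 3, and the higher count was 5 without del22 replicate 3. With library totals as the scaling, 8 cholesterol genes were higher and 1 lower. In the serine and ATF4 list the higher gene, PHGDH, lost its call without any 1 of the 6 libraries, and the lower gene, NUPR1, without WT-EF replicate 2. HSD17B7, an enzyme of cholesterol synthesis, was at 17.3, 19.4 and 14.5 CPM against 9.55, 11.1 and 10.6 CPM (0.70 ± 0.17, adjusted p = 0.00399).

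Of 6 markers of Ewing sarcoma, 5 were higher with WT-EF and CD99 did not pass the test. The 5 higher markers (LIPI, NR0B1, NKX2-2, STEAP1 and CCND1) are also on the list of activated targets. Their rise therefore cannot check the identity of the line. The summed level of all 6 markers was 2059 to 2474 CPM with WT-EF and 1386 to 1696 CPM with del22, most of it CCND1. STEAP1, a metalloreductase of the cell surface, was at 126, 129 and 109 CPM against 42.1, 53.7 and 43.5 CPM (1.39 ± 0.16). CD99, the surface protein used to diagnose Ewing sarcoma, was at 0 to 0.0484 CPM with WT-EF and 0.0757 to 0.219 CPM with del22. CD99 lies in the pseudoautosomal region that X and Y share, where reads that fit both copies may have gone uncounted, and at this depth no difference was called (adjusted p = 0.069). Markers of epithelial cells summed to 41.5 to 48.9 CPM with WT-EF and 56.9 to 141 CPM with del22, nearly all keratins.

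How far the difference between WT-EF and del22 resembled the effect of the endogenous fusion was read from iLuc against iEF, which shares no library with it. Of all genes tested, 41.1% differed between iLuc and iEF. Of the 7703 genes that differed between WT-EF and del22, 6294 (81.7%) were also called there, which is 50.1% of the iLuc against iEF calls. The direction was the same for 6208 of the 6294 (98.6%, 95% Wilson interval 98.3% to 98.9%, counting error over genes only). Among the 5727 genes higher in iLuc than iEF, 44.3% were higher with WT-EF, and among the 6833 genes lower in iLuc, 53.8% were lower with WT-EF. Over all tested genes Pearson's r between the 2 log2 fold changes was 0.653, given as a description since genes are not independent.

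The size differed. The genes higher in iLuc had a median log2 fold change of 1.09 there and of 0.50 for WT-EF over del22, and the genes lower in iLuc had medians of -1.83 and -0.82. These genes were chosen by their calls in iLuc against iEF, which tends to enlarge the medians there. The difference between the 2 contrasts, tested within the same fit, was called for 3019 genes (9.88%). It subtracts the endogenous change, so the 2 tend to have opposite signs by construction, as in 2921 of these genes. PMP22, a myelin protein gene, is an example: it was at 63.1, 47.4 and 52.4 CPM with WT-EF and 117, 184 and 193 CPM with del22, against a mean of 0.617 CPM in iLuc and 202 CPM in iEF. Its difference was 6.75 on the log2 scale (adjusted p = 1.6e-10). C7, a complement component, was at 0.024 to 0.344 CPM with WT-EF and 0.247 to 0.367 CPM with del22, which overlap, while iLuc had a mean of 23.5 CPM and iEF of 0.15 CPM (difference -7.77, adjusted p = 4.27e-08). Not every gene changed less with WT-EF than with the endogenous fusion. HOXD13 had means of 39.8 ± 3.99 CPM with WT-EF and 35.3 ± 5.02 CPM in iLuc (SD, n = 3), and the difference of its contrasts was 0.31 (adjusted p = 0.283). CALCB was higher with WT-EF, at 39.9 ± 3.3 CPM, than in iLuc, at 17.4 ± 3.7 CPM, and the difference of its contrasts was 1.86 (adjusted p = 0.000779).

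**Figure D3:**
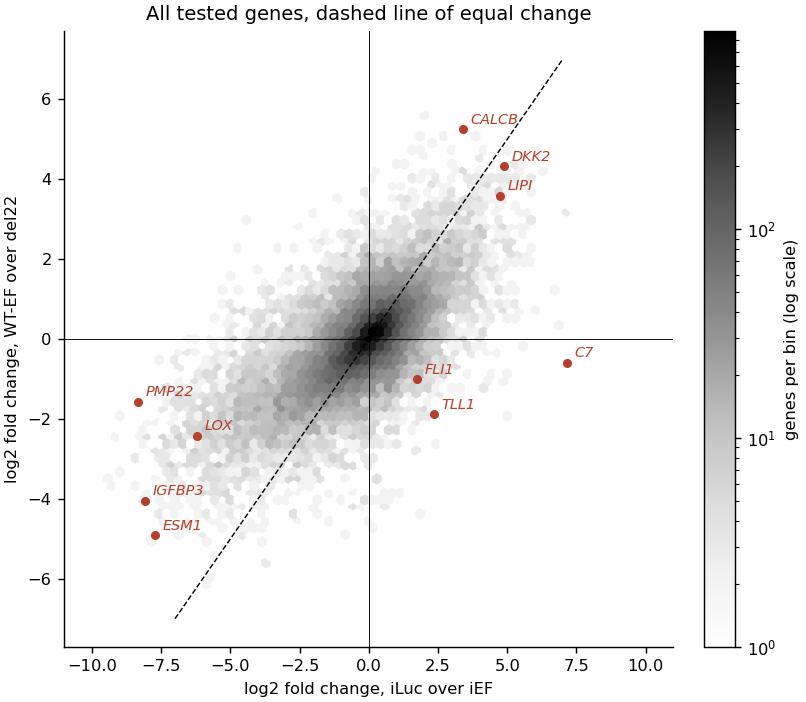
For all tested genes the log2 fold change of WT-EF over del22 (vertical) is plotted against that of iLuc over iEF (horizontal), with darker bins holding more genes and the dashed line marking equal change. Most of the spread is flatter than the dashed line, with PMP22 at -1.57 against -8.32, while TLL1 and FLI1 lie in the quadrant of opposite signs.

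Of the 6294 genes called in both, 86 had opposite directions, 36 of them higher and 50 lower with WT-EF. TLL1, a protease that processes procollagens, was at 5.19, 4.43 and 3.95 CPM with WT-EF against 18.8, 19.3 and 12.1 CPM with del22 (-1.88 ± 0.23), but at a mean of 34.0 CPM in iLuc against 6.57 CPM in iEF. FLI1 is also among these genes, and its counts pool the cDNA, any remaining fusion transcript and native FLI1. Chosen after their values were seen, SEMA3D, a semaphorin gene, had means of 21.2 ± 0.99 CPM with WT-EF, 43.0 ± 7.55 CPM with del22, 57.9 ± 16.5 CPM in iLuc and 11.5 ± 0.18 CPM in iEF, and KIT, the stem cell factor receptor gene, had 3.48 ± 1.3, 8.43 ± 2.73, 18.8 ± 3.83 and 4.87 ± 1.57 CPM in the same order (SD, n = 3).

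The other groups were placed on the scale from del22 to WT-EF for the called genes whose mean log2 CPM differed by at least 1 between the groups, with del22 set to 0% and WT-EF to 100% of the log2 difference. For 1526 higher genes the median position was 3.3% in iEF, 4.06% in DAF-mut9, 17.5% in DAF, 69.4% in mut9 and 112% in iLuc. For 2579 lower genes it was 0.398% in iEF, -0.247% in DAF-mut9, 11.7% in DAF, 49.9% in mut9 and 136% in iLuc. These positions are a description with no test, since the same WT-EF and del22 libraries set the scale. Of all called genes, iEF was nearer to del22 than to WT-EF for 2881 of the higher (88.3%) and 3936 of the lower genes (88.6%). NR0B1 departed from the medians, with a mean of 27.3 ± 9.45 CPM with DAF and 46.5 ± 8.81 CPM with mut9 beside 28.4 ± 2.59 CPM with WT-EF and 8.01 ± 3.62 CPM with del22. IGFBP3 stayed high with DAF, at 4530 ± 976 CPM, and was at 1740 ± 463 CPM with mut9 (SD, n = 3).

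**Figure D4:**
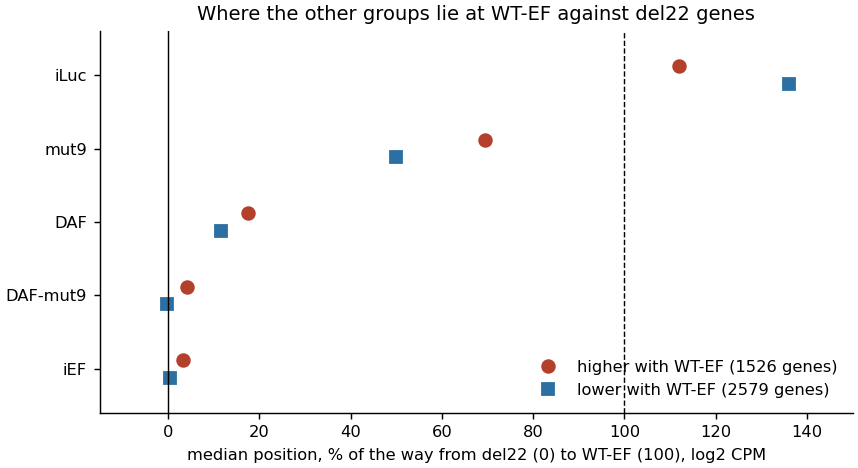
The median position of each other group along the log2 difference from del22 (0%) to WT-EF (100%) is plotted in percent, with circles for genes higher and squares for genes lower with WT-EF. The iEF and DAF-mut9 points sit beside del22, DAF at 17.5% and 11.7%, mut9 at 69.4% and 49.9%, and iLuc beyond WT-EF.

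GGAA repeats near start sites were counted in the reference genome for 16401 protein-coding genes. A run of at least 4 GGAA units within 5 kb was found for 12.9% of the 372 genes that were higher by 4-fold or more (48 genes), for 5.04% of all 2422 higher genes, for 3.48% of 3503 lower genes and for 3.34% of 10476 genes not called, against 3.62% of all. With runs of at least 6 units the shares were 11% of the genes higher by 4-fold or more, 1.26% of the genes lower by 4-fold or more and 1.18% of those not called. Within 50 kb, runs of at least 4 units were near 55.9% of the genes higher by 4-fold or more and near 33.4% of all genes. Repeats were not limited to the higher genes: among the genes named by the fixed rule, 7 of 63 higher and 8 of 93 lower ones had such a run within 5 kb, the latter including ETS1, TFPI2, IGFBP1 and FLI1. CALCB and PROKR1, among the largest increases, had no such run within 5 kb.

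**Figure D5:**
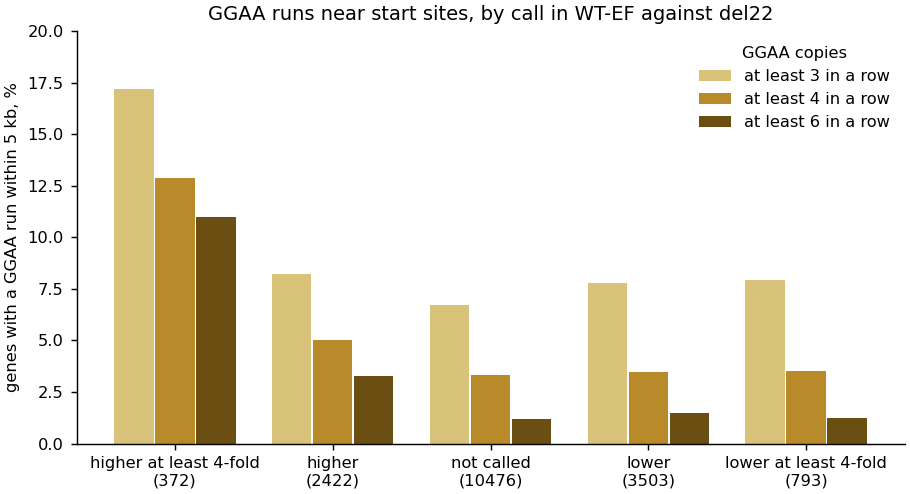
The share of protein-coding genes with a run of at least 3, 4 or 6 GGAA units within 5 kb of the start is plotted in percent for each class of call, with the number of genes in brackets. The bars of the genes higher by 4-fold or more, at 17.2%, 12.9% and 11%, stand above those of the other classes, where runs of at least 4 units reach 5.04% at most.

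The single ETS site was looked for in RefSeq promoters of build GRCh38, from 250 bases before to 50 bases after the start, as the letters CCGGAAGT on either strand. It was found in 7.45% of 1946 promoters of higher genes, 3.91% of 2790 promoters of lower genes and 8.21% of 8263 promoters of genes not called, against 7.17% of the 12999 promoters of all tested genes and 4.44% of all 27305 promoters in the table. Among genes changed by 4-fold or more it was in 1 of 282 promoters of higher genes and 1 of 585 promoters of lower genes. The letters GGAAGGAA, a pair of repeat units that cannot use the same GGAA as the ETS word, were in 3.24% of the promoters of higher genes, 4.09% of those of lower genes and 3.35% of those not called, against 3.49% of all tested genes. Among genes changed by 4-fold or more they were in 4 of 282 promoters of higher genes (1.42%) and 27 of 585 promoters of lower genes (4.62%), so in this short window the order was the reverse of that for runs within 5 kb. A match in this window is a description of the letters and says nothing of binding in these cells.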

How the data were processed

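Total RNA from 21 A673 samples (7 groups, n = 3) was sequenced by the study. Per the labels and the methods, the authors aligned reads to hg19 with STAR (2.5.1b in the submitters' processing notes). They counted the reads with HTSeq in its intersection-strict mode. The strand setting and annotation release are not given in the sources used here. The deposited values used were raw counts per gene. The deposited ComBat-adjusted values, a signal corrected by the authors for replicate set, served only as an alternative. The authors' DESeq2 columns, which hold fold changes and p-values, were not used, and 5 summary rows without values were left out. The mut9d columns were taken as DAF-mut9 from their name.

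Of 57820 rows, 48035 had a count, and the 30549 that averaged 1 or more counts over the libraries were tested in edgeR 4.0.16 (R 4.3.3) with TMM factors, the quasi-likelihood test, all 21 libraries, and replicate number as a block, with Benjamini-Hochberg adjustment over all genes tested and a threshold of 0.05. The block was kept because each number marks a separate knockdown and rescue experiment, and the study adjusted each replicate set for batch effects. Deviations from the group mean gave r of 0.189, 0.322 and 0.252 over 14250 genes between WT-EF and del22 libraries of the same number. For different numbers r was -0.309 to -0.000908. Such deviations cancel out within each gene, which pushes the different-number values down, so the gap between these ranges overstates the pairing. Whether the experiments used separate cell stocks is not stated, so p-values measure the spread between these samples. The fit was tested on simulated data. Gene positions were from GENCODE annotation for GRCh37.

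Members, gene lists and tests were chosen with earlier results of these data known. Genes were named by a fixed rule: FLI1, EWSR1, the 5 assayed targets, the 8 largest changes in each direction among called protein-coding genes with a mean of at least 5 CPM and a direction shared by all 3 sets, up to 3 genes per list and direction by smallest p, and the 4 largest differences between contrasts in each direction. Some genes that the rule names are not reported here. Alternatives were another normalization, other filters, no block, fewer libraries, DESeq2 1.42.0, limma 3.58.1 on the ComBat values (pseudocount 0.5 on the CPM scale), a fold threshold of 2 and leaving out each library. Scaling by library totals, and TMM on the ComBat values, were added after the data were seen.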

Additional observations from a re-analysis of the deposited data

Results flagged for a closer look

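The values here were singled out because the effect of WT-EF over del22 differed from that of iLuc over iEF by the test of the difference itself. This held for 3019 of all tested genes and for 83 of the genes named above, and 86 genes were called in opposite directions in the 2 contrasts. The largest positive differences, on the log2 scale, were 7.02 for CD22, 6.75 for PMP22, 6.34 for LRRC55 and 6.27 for ADAMTS7, all lower in iLuc than in iEF. CD22 and ADAMTS7 had means of 0.041 and 0.0611 CPM in iLuc, under 3 counts per library, so that the size of their differences rests on very few counts. CD22, a B cell receptor gene, was lower with WT-EF (-1.98), a call lost without WT-EF replicate 3 (-1.57, adjusted p = 0.0628), and LRRC55 was not called (-0.02, adjusted p = 0.987). The largest negative differences were -7.77 for C7, -7.77 for C6, -5.27 for CLUL1 and -4.24 for TLL1, all higher in iLuc than in iEF. C6, a complement component like C7, was at 0.36 to 0.701 CPM with WT-EF, 0.0505 to 0.206 CPM with del22 and a mean of 20.1 CPM in iLuc, and its mean of 0.018 CPM in iEF is under 3 counts per library. CLUL1 was not called between WT-EF and del22 (0.67, adjusted p = 0.0699) and was called without del22 replicate 3 (1.01, adjusted p = 0.0178).

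Of the named genes whose directions were opposite, FLI1 differed by -2.76, APLNR by 5.08, COL16A1 by 3.07, HDAC1 by -0.89 and KRT8 by -1.68. HDAC1, a histone deacetylase of the NuRD complex, was at 125, 131 and 105 CPM with WT-EF and 166, 176 and 148 CPM with del22, and its call between them was lost with library totals as the scaling (-0.25, adjusted p = 0.0649). APLNR had a mean of 0.0476 CPM in iLuc, again under 3 counts per library. The KRT8 call between WT-EF and del22 (adjusted p = 0.0495) was lost without del22 replicate 3 (-0.22, adjusted p = 0.581) and without each of the WT-EF libraries (adjusted p of 0.0562 to 0.216). The COL16A1 call was lost without del22 replicate 3 (0.68, adjusted p = 0.062).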

How the results depend on the processing

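The count of 7703 genes stayed within 1.5 times under every alternative except the fold threshold. With a fold change of at least 2 there were 4180 calls, 1550 higher and 2630 lower (37.1% higher), and 99.2% of those called in both contrasts shared a direction. With no replicate block the count was 6985, with 41.2% higher and 98.9% sharing a direction, and 6 named genes lost their call. The higher share was 44.7% with no low-count filter (97.7% sharing a direction), 46.2% with only the compared libraries and 39.7% without the DAF-mut9 libraries. The shared direction was 98.3% under filterByExpr. Library totals gave 5564 higher genes (62.4%), limma on the ComBat values, scaled by totals, 5670 (63.2%), and limma with TMM on them 43.5%, with 98.3% sharing a direction. The scaling alone changed between the last 2. DESeq2 called 7960 genes. Leaving out 1 library at a time gave 5573 to 6535 calls, 39.1% to 44.1% higher, 97.3% to 98.9% sharing a direction, and 2167 to 3916 genes for the difference between contrasts. None of the 156 called named genes changed direction, and 17 of them lost their call without some library.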
